A study of Mus musculus with 6 samples.

Results

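Macrophage activation state genes are transcripts used to place macrophages along classical, alternative and lipid-associated programs. The 9 genes described here, Nos2, Mrc1, Cd163, Chil3, Retnla, Trem2, Gpnmb, Spp1 and Apoe, were chosen by name from the 34245 genes of the expression table, and each had 1 entry in it. The study followed mice with a conventional heterozygous deletion of the DNA methyltransferase Dnmt3b, some of which developed peripheral T-cell lymphoma (PTCL). RNA-seq was run on total RNA, isolated with Trizol, from 3 independent Dnmt3b+/- PTCL of FVB mice, with lymph node as the labelled tissue. The labels give the strain as FVB, and the paper's methods give it as FVB/N. The paper describes no sorting of tumor cells for these libraries, so tumor cells and any other cells in a sample could contribute RNA. All 3 tumors carried the same genotype and no control group was compared, so the values describe how the tumors differed from each other and not an effect of Dnmt3b. The age of each mouse is not given in the sources used here, and the whole-genome bisulfite samples of the series were not analysed here. Depth, recovered from the deposited values, was 30726570, 18969988 and 20770928 reads for tumors 1, 2 and 3. With 1 group of 3 tumors no test was run and no p-value is given.

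Macrophages exposed to interferon gamma and microbial products take on a classical state, marked in mice by the nitric oxide synthase Nos2. Interleukin 4 and interleukin 13 drive an alternative state, marked by the mannose receptor Mrc1, the chitinase-like protein Chil3 and the resistin-like protein Retnla, while lipid uptake and damaged tissue are linked to a program with Trem2, Gpnmb, Spp1 and Apoe. Several of these genes are also expressed by other cells, among them Chil3 in neutrophils, Retnla in adipose tissue and Apoe and Gpnmb in a range of non-macrophage cells.

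T-cell markers were abundant in each tumor, and macrophage transcripts lay at very different levels. Summed FPKM (fragments per kilobase of exon scaled to the reads of the library, a level per length) of 12 T-cell markers was 1741, 1403 and 1757 FPKM in tumors 1, 2 and 3, and Cd8b1 had the highest mean over tumors. The 7 monocyte markers summed to 506, 1562 and 889 FPKM, above the T-cell sum in tumor 2, and several of them are also expressed by T cells. The 16 macrophage identity genes summed to 474, 157 and 43.9 FPKM, and none of the 16 was without a read in any tumor. Lyz2, the macrophage and neutrophil lysozyme, had the highest mean of them over tumors, at 215, 33.1 and 20.3 FPKM. Of these 16 genes, 15 were highest in tumor 1, and Cd68, a lysosomal glycoprotein, was highest in tumor 2 at 19.6, 51.2 and 9.27 FPKM. The geometric mean over the 16 genes, called the macrophage identity level below, was 9.63, 2.86 and 0.856 FPKM for tumors 1, 2 and 3. In bulk tumors, fewer macrophages and less RNA per macrophage cannot be told apart.

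Of the 9 members, 4 (Mrc1, Retnla, Gpnmb and Apoe) were above 0.2 FPKM in every tumor, beside 36.7% of all genes. The level of the 9 genes together was 121, 92.1 and 11.7 FPKM in tumors 1, 2 and 3, and most of it was Apoe in each tumor. Between the highest and the lowest tumor, 7 of the 9 members differed by at least 4-fold with each tumor taken at no less than the FPKM of 3 reads, namely Nos2, Mrc1, Cd163, Chil3, Trem2, Gpnmb and Apoe. Among the 15846 genes above 0.2 FPKM in at least 1 tumor, 19.6% differed by as much, and their median fold was 1.86. Over all genes the share was 10.3%. Cd163 did not reach 0.2 FPKM in any tumor, so 8 of the 9 members belong to the filtered background. Without tumor 1 the count of members was 4, for which no background share is given, since the shares above are over 3 tumors. Among the 16 macrophage identity genes, 15 also differed by at least 4-fold.

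**Figure D1:**
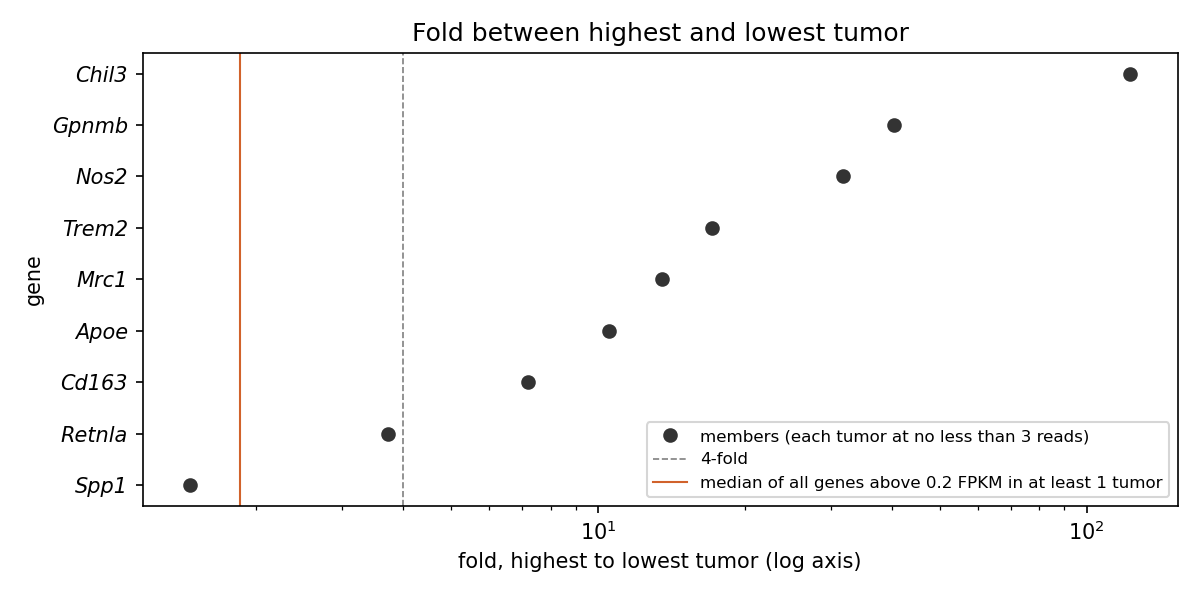
Fold between the highest and the lowest of 3 tumors (log axis) for each of the 9 members, with each tumor at no less than the FPKM of 3 reads. Chil3 lies farthest right at 123 and Spp1 farthest left at 1.46, and the solid line marks the median of all genes above 0.2 FPKM in at least 1 tumor.

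The members did not share 1 order of tumors. Tumor 1 was highest for 5 of the 9 members (Nos2, Mrc1, Cd163, Chil3 and Apoe), close to the 49.5% of background genes highest there. Tumor 2 was highest for Retnla, Trem2 and Gpnmb, 3 of 9, beside 35.8% of background genes. Tumor 3 was highest for Spp1 alone, 1 of 9, beside 14.7%. Without tumor 2, tumor 1 was highest for 8 members. No background share with that tumor left out is given here, so this count is not compared with one. The highest tumor of each member was the same on all 3 scales tried, but for Spp1 it was not resolved beyond counting error.

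**Figure D2:**
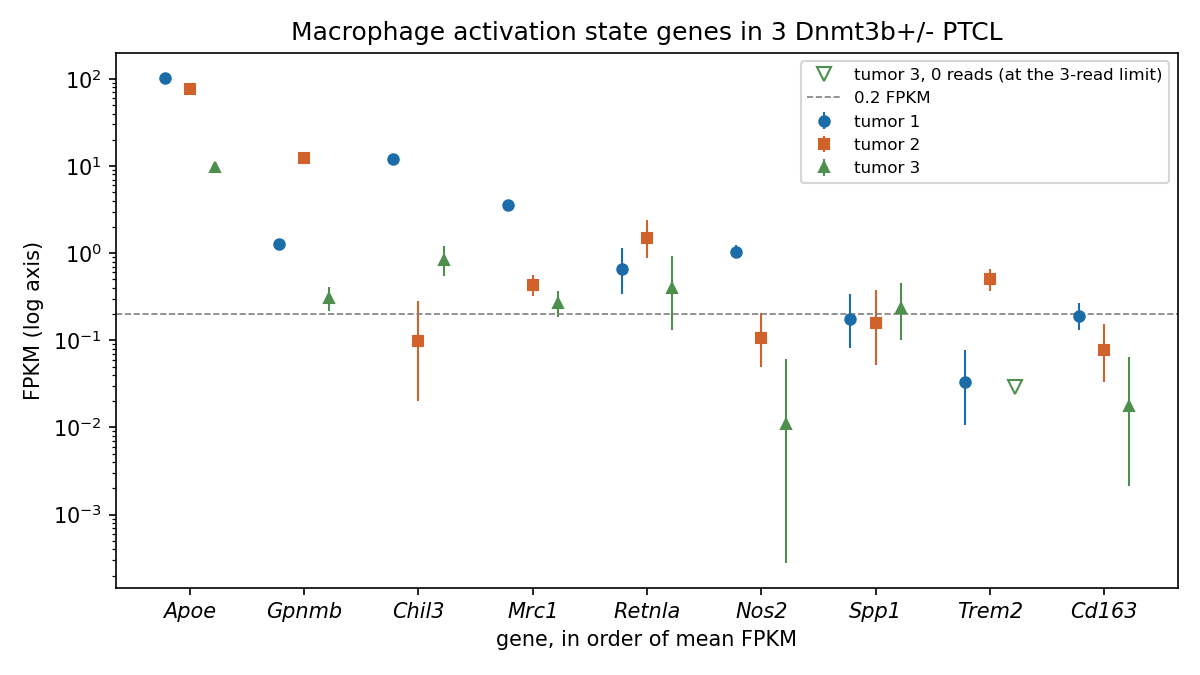
FPKM (log axis) of the 9 members in each tumor, with 95% counting intervals; open triangles stand at the 3-read limit for tumors with 0 reads. Chil3 is highest in tumor 1 and Gpnmb in tumor 2, and Apoe is the most abundant member in each tumor.

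The 250 bases before the RefSeq transcription start are shown for Chil3, Gpnmb and Trem2. These 3 had the largest folds among the 8 members with a promoter entry, which Nos2 lacks. Chil3 was highest in tumor 1 and Gpnmb and Trem2 in tumor 2. The bases shown are RefSeq sequences of the GRCm38.p6 reference, a C57BL/6J genome, whereas the tumors came from FVB mice. Capitals mark matches, on either strand, to GAGGAA (the PU.1 core), TGANTCA (AP-1) and TTCNNNGAA (STAT), which do not overlap in these windows. Each is given in the direction of transcription, for Chil3 from chr3:106167565-106167814 (minus strand), for Gpnmb from chr6:49036268-49036517 (plus strand) and for Trem2 from chr17:48346151-48346400 (plus strand), each upstream of the gene interval given below.
Chil3: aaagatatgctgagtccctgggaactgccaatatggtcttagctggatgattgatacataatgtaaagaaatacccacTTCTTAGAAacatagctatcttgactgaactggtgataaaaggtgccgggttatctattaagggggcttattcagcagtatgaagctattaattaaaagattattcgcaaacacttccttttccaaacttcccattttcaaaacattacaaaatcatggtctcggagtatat
Gpnmb: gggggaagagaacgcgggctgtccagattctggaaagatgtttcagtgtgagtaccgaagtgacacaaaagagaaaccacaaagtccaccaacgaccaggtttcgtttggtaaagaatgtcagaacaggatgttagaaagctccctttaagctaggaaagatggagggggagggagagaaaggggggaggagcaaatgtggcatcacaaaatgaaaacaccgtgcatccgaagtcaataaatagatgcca
Trem2: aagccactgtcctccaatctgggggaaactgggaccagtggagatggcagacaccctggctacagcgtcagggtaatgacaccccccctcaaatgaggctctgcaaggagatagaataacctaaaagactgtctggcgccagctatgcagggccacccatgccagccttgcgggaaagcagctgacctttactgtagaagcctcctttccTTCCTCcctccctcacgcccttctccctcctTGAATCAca
Chil3 held 1 STAT match, Trem2 held 1 PU.1 core and 1 AP-1 match, and Gpnmb held none of the motifs searched. Among all 32851 promoter windows of this length, 23.3% held the PU.1 core, 6.75% AP-1 and 7.02% STAT. The other motifs searched had no match in the 3 windows. The E-box was spelled CACGTG and is held by 6.02% of all windows of this length. For the M-box, bound by factors of the MITF family, the letters TCATGTG were used, with a share of 3.25%. A C/EBP motif of TTGCNNAA is found in 9.56% of windows. The TATA box was searched as TATAAA, which 12.4% of windows hold. A match describes letters in the reference and not a bound site.

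Nos2 (chr11:78920787-78960254, plus strand), which makes nitric oxide from arginine, was expressed at 1.04 FPKM (tumor 1), 0.108 (tumor 2) and 0.0109 (tumor 3), resting on 141, 9 and 1 reads. It was high in tumor 1 and near the limit of detection in tumor 3. The ratio of tumor 1 to tumor 2 was 9.67 (95% interval 4.95 to 21.6), and that of tumor 1 to tumor 3, which rests on 1 read, had a counting interval starting at 16.8. Intervals and limits here cover counting error only. Of the 16 genes of the classical list other than Nos2, 12 were highest in tumor 1, or 13 with Il23a, whose single read was in tumor 1. The share of background genes highest there was 49.5%. Tumor 1 was also highest for 15 of the 16 macrophage identity genes and 9 of the 14 alternative activation genes that are not members. The lean to tumor 1 was thus not particular to the classical list. Classical genes highest in tumor 1 included Socs3, a suppressor of cytokine signaling, and Cxcl9, an interferon-induced chemokine at 37.8, 1.77 and 0.447 FPKM. Cxcl10, a related chemokine, was instead highest in tumor 2 at 8.14, 22.5 and 0.663 FPKM.

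The 3 most abundant of the other genes on the arginine metabolism list varied less than Nos2, whose substrate is arginine. Ass1, which takes part in remaking arginine from citrulline, was at 20.9, 24.9 and 35.5 FPKM, and Odc1, which makes polyamines from ornithine, was at 16.9, 18.8 and 12.5 FPKM. The arginine transporter Slc7a1 was at 8.77, 7.78 and 6.45 FPKM. Of the 8 arginine metabolism genes that are not members, tumor 1 had the highest level for 3, tumor 2 for 4 and tumor 3 for 1.

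Mrc1 (chr2:14229392-14332057, plus strand), the mannose receptor, was measured at 3.57 FPKM (tumor 1), 0.430 (tumor 2) and 0.264 (tumor 3), resting on 699, 52 and 35 reads, with a mean of 1.42 ± 1.86 FPKM (SD, n = 3). Tumor 1 stood apart, with a ratio to tumor 2 of 8.30 (95% interval 6.26 to 11.2) and to tumor 3 of 13.5 (95% interval 9.61 to 19.5). This was the order of the macrophage identity level. The related receptor Mrc2, which binds collagen, had another order and was highest in tumor 2 at 1.00 FPKM, with 0 reads in tumor 3.

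Cd163 (chr6:124304656-124330527, plus strand), the receptor for hemoglobin bound to haptoglobin, was barely detected at 0.191 FPKM (tumor 1), 0.0772 (tumor 2) and 0.0176 (tumor 3), resting on 32, 8 and 2 reads. Its ratio of tumor 1 to tumor 2 was 2.47 (95% interval 1.11 to 6.20), and tumors 2 and 3 were not distinguishable at this depth. The ratio of tumor 1 to tumor 3, which rests on 2 reads, was 10.8 (95% interval 2.76 to 93.1). Hmox1, which breaks down heme, was at 15.5, 4.82 and 1.15 FPKM, in the same order of tumors. The related scavenger receptor Cd163l1, which T cells of the gamma delta lineage express, was far more abundant than Cd163 and highest in tumor 2 at 3.38, 62.6 and 1.56 FPKM.

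Chil3 (chr3:106147554-106167564, minus strand), a secreted chitinase-like protein, varied most of the 9 members, at 11.9 FPKM (tumor 1), 0.0969 (tumor 2) and 0.826 (tumor 3), resting on 597, 3 and 28 reads. The ratio of tumor 1 to tumor 3 was 14.4 (95% interval 9.87 to 21.9), and that of tumor 1 to tumor 2, which rests on 3 reads, was 123 (95% interval 41.8 to 597). Tumor 1 was high, and tumor 2 was the lowest although its macrophage identity level was above that of tumor 3. The sum of neutrophil markers had this order too. The 10 neutrophil genes summed to 41.7, 1.87 and 18.2 FPKM, with S100a9 their most abundant at 22.6, 1.01 and 10.4 FPKM, and Cxcr2 had 0 reads in tumor 2. Of these, 6 were highest in tumor 1, Camp was highest in tumor 3 (6, 1 and 9 reads), and Ly6g, Mpo and Elane had at most 1 read in any tumor. The part of neutrophils in the Chil3 level was not tested. Chil1, of the same family, was at 7.68, 0.0188 and 0.223 FPKM, and Chil4 had 0 reads in every tumor. Of the 14 alternative activation genes that are not members, tumor 1 had the highest level for 9, tumor 2 for 2 and tumor 3 for 2.

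Retnla (chr16:48842552-48844461, plus strand), a secreted resistin-like protein, was measured at 0.653 FPKM (tumor 1), 1.50 (tumor 2) and 0.403 (tumor 3), resting on only 12, 17 and 5 reads. Tumor 2 exceeded tumor 3 with a ratio of 3.72 (95% interval 1.32 to 12.9), while tumors 1 and 3 were not distinguishable at this depth. The 7 adipocyte markers were all highest in tumor 2 and summed to 0.957, 8.41 and 0.184 FPKM, with Car3 the most abundant in tumor 2 and 6 of the 7 without a read in tumor 3. Lep had 0, 1 and 0 reads and Retn 2, 3 and 0 reads, so the highest tumor of these genes is not resolved. The part of adipocytes in the Retnla level was not tested.

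Il4 and Il13, cytokines known to induce the alternative state, were found mainly in tumor 1. Il4 was at 3.50, 0.0387 and 0.0785 FPKM (132, 0 and 2 reads), and Il13 had 18, 0 and 0 reads. The classical inducer Ifng was also highest in tumor 1, at 8.49, 1.10 and 1.12 FPKM. Csf2, a growth factor for myeloid cells, was highest in tumor 2 at 1.02, 5.34 and 1.99 FPKM, as was Il34, a ligand of Csf1r, at 1.02 FPKM with 0 reads in tumor 3. Tgfb1, the most abundant of the list in each tumor, was at 13.2, 19.3 and 11.6 FPKM. Over the list of 10 cytokines, 6 were highest in tumor 1 and 4 in tumor 2. The cells that made them cannot be told apart in these samples.

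Trem2 (chr17:48346401-48354147, plus strand), a lipid-sensing receptor, was detected chiefly in tumor 2, at 0.0329 FPKM (tumor 1), 0.501 (tumor 2) and 0.00876 (tumor 3), resting on 5, 47 and 0 reads. The ratio of tumor 2 to tumor 3, which rests on 0 reads in tumor 3, had a counting interval starting at 13.4. The FPKM of Trem2 is divided by a merged exon length of 4946 bases, against 1088 for its principal transcript. Per length of that transcript the level in tumor 2 was 2.28 FPKM, an alternative chosen after seeing the data. The same change took Gpnmb in tumor 2 to 21.5 FPKM and Apoe in tumor 1 to 155 FPKM, and leaves ratios between tumors as they are. Tyrobp, the adaptor through which Trem2 signals, was present in all tumors at 42.0, 27.0 and 15.1 FPKM, in another order than Trem2. Of the 5 partners of Trem2 in signaling, tumor 1 had the highest level for 3, tumor 2 for 1 and tumor 3 for 1.

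Gpnmb (chr6:49036546-49070929, plus strand), a lysosomal and membrane glycoprotein, was measured at 1.27 FPKM (tumor 1), 12.2 (tumor 2) and 0.303 (tumor 3), resting on 255, 1510 and 41 reads, with a mean of 4.60 ± 6.62 FPKM (SD, n = 3). Tumor 2 stood above both others, and its ratio to tumor 3 was 40.3 (95% interval 29.6 to 56.4). Tumor 1, with the highest macrophage identity level, had a Gpnmb level 0.104 times that of tumor 2. Of the 18 lipid-associated and lysosomal genes that are not members, 8 were highest in tumor 2 and 9 in tumor 1, and the most abundant, the protease Ctsd, was at 156, 255 and 160.5 FPKM. Markers of some other tissues were also highest in tumor 2 when summed. The 8 fibroblast genes summed to 12.8, 50.7 and 0.395 FPKM, with Col1a1 the most abundant in tumor 2 and 6 of them highest in tumor 2, while Dcn at 5.04, 3.27 and 0.00825 FPKM and Lum at 1.28, 0.646 and 0.0177 FPKM were highest in tumor 1. The 10 pancreatic acinar genes, each highest in tumor 2, summed to 94.3, 471 and 0.703 FPKM, with Ctrb1 the most abundant in tumors 1 and 2. Epithelial markers summed to 14.2, 2.78 and 0.937 FPKM, most of it Cdh1 in tumor 1, while 3 of the 5 were highest in tumor 2. Endothelial markers summed to 13.7, 13.1 and 5.18 FPKM, mainly Pecam1, and 3 of the 6 were highest in tumor 2 and 3 in tumor 1. Lum and Pdgfra among the fibroblast genes, and Cel, Cela3b, Cpa1 and Ctrb1 among the acinar genes, had 0 reads in tumor 3. The part of other tissue in the levels of Gpnmb and Trem2 was not tested.

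**Figure D3:**
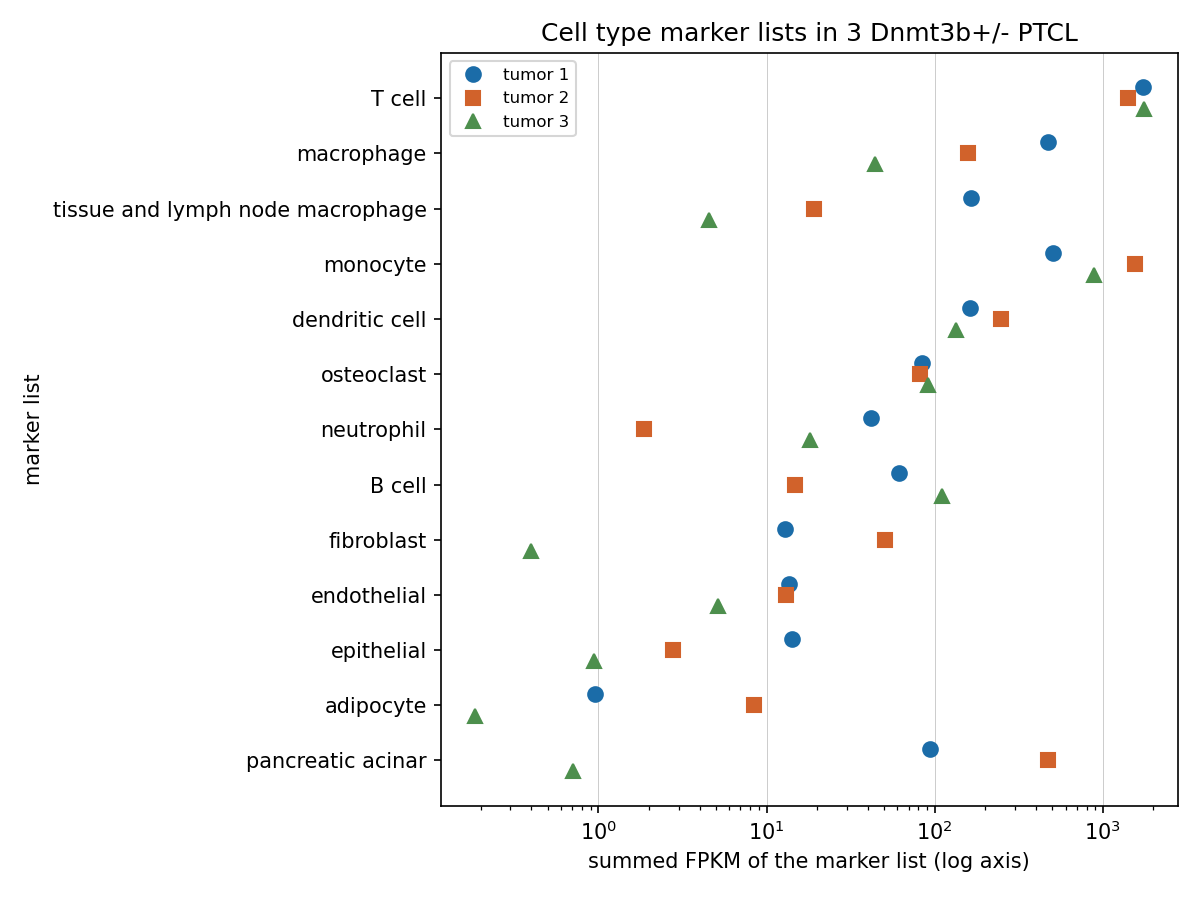
Summed FPKM (log axis) of the cell type marker lists in each tumor. The sums of the macrophage and neutrophil lists are highest in tumor 1, those of the fibroblast, adipocyte and pancreatic acinar lists in tumor 2, and that of B-cell markers in tumor 3. A sum can rest on 1 gene, as the epithelial (Cdh1), endothelial (Pecam1) and osteoclast (Acp5) sums largely do in tumor 1.

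Spp1 (chr5:104435118-104441050, plus strand), or osteopontin, a secreted ligand of integrins and Cd44, was low at 0.178 FPKM (tumor 1), 0.160 (tumor 2) and 0.234 (tumor 3), resting on 9, 5 and 8 reads. No pair of tumors was distinguishable at this depth, and the ratio of tumor 1 to tumor 3 was 0.760 (95% interval 0.260 to 2.27). Part of its exons, 309 bases, is shared with the predicted gene Gm42793 on the same strand, so reads there are uncertain. Of its 7 receptors listed, 6 differed by at least 4-fold, beside 19.6% of background genes and 15 of the 16 macrophage identity genes. Among the 6 were Itgb1 at 10.9, 88.7 and 48.1 FPKM and Itgb3 at 15.2, 0.491 and 4.16 FPKM, while Itgav differed by 2.26-fold. The counting interval of Spp1 between its highest and lowest tumor reached 5.68, so receptors with smaller folds are not set apart from it.

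Apoe (chr7:19696109-19699188, minus strand), a lipid carrier secreted by macrophages, was the most abundant member in each tumor, at 102 FPKM (tumor 1), 77.0 (tumor 2) and 9.66 (tumor 3), resting on 6686, 3122 and 429 reads, with a mean of 62.8 ± 47.7 FPKM (SD, n = 3). Tumors 1 and 2 were close, with a ratio of 1.32 (95% interval 1.27 to 1.38), and tumor 3 was low, with a ratio of tumor 1 to tumor 3 of 10.5 (95% interval 9.55 to 11.6). The mean was above that of 98.8% of genes. Sorl1, a receptor that binds APOE, was at 13.2, 16.7 and 18.8 FPKM. Lrp1, also on the list of APOE receptors, was at 1.52, 1.27 and 0.133 FPKM, in the order of Apoe. Of the 5 genes on that list, tumor 1 had the highest level for 1, tumor 2 for 2 and tumor 3 for 2.

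Each member was divided by the macrophage identity level of the same tumor, with each tumor at no less than 3 reads. This changed the highest tumor only for Apoe, from tumor 1 to tumor 2, and Cd163, from tumor 1 to tumor 3. On this ratio tumor 1 was highest for 3 members, tumor 2 for 4 and tumor 3 for 2. Of these last 2, Cd163 (2 reads) stood at the 3-read limit in tumor 3, so its place there is a limit and not a measurement. Its measured ratio was 0.0198, 0.0270 and 0.0206 in tumors 1, 2 and 3, highest in tumor 2. Only Spp1 was measured as highest in tumor 3. Other divisors can give another highest tumor. Apoe was 10.6, 26.9 and 11.3 times the identity level in tumors 1, 2 and 3, so tumor 3 was no longer below tumor 1. With Csf1r as the divisor, Apoe was at 4.92, 20.7 and 4.10 times, and tumor 3 was still the lowest. Mrc1 was 0.371, 0.150 and 0.309 times the level, a narrower range than in FPKM. Gpnmb, at 0.132, 4.27 and 0.354 times, stayed far higher in tumor 2, and Chil3, at 1.24, 0.0338 and 0.965 times, stayed far lower there. The median fold between the highest and the lowest tumor over the 9 members was 7.72 on this ratio and 13.5 in FPKM. With Csf1r alone as the divisor it was 11.6, and with the mean of C1qa, C1qb and C1qc it was 27.9. Leaving out 1 tumor gave 2.38 without tumor 1, 2.68 without tumor 2 and 3.03 without tumor 3.

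**Figure D4:**
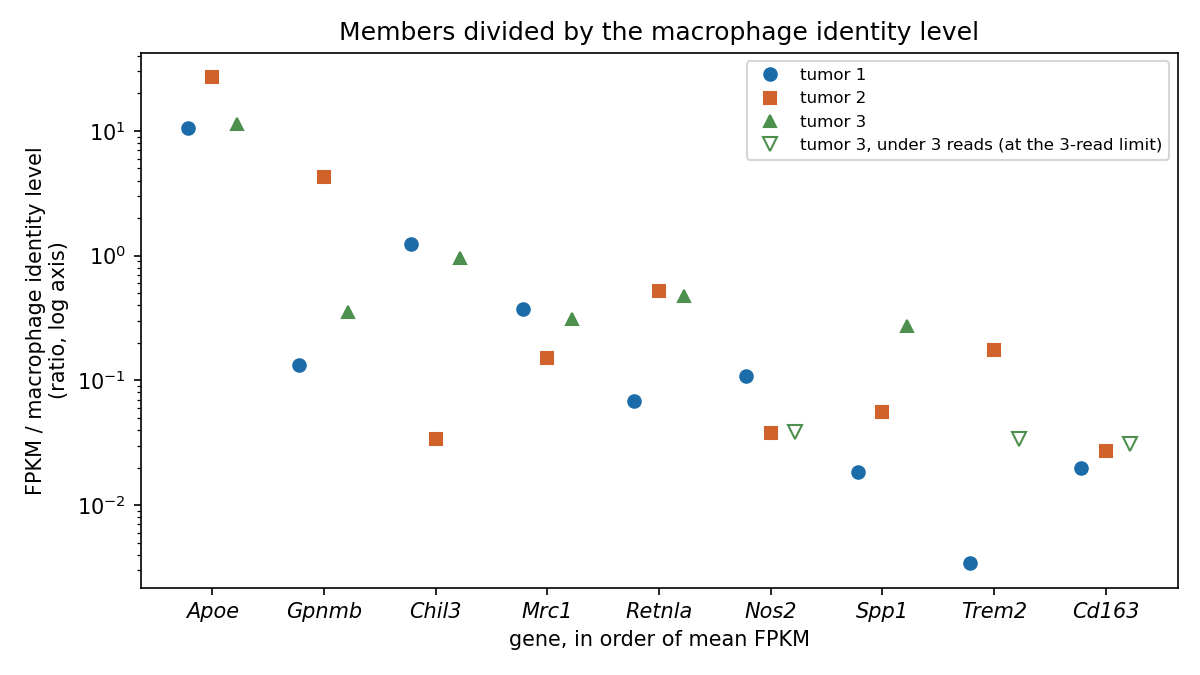
FPKM of each member divided by the macrophage identity level of the same tumor (ratio, log axis), with open triangles where a tumor had under 3 reads and stands at the 3-read limit. Apoe spans 2.55-fold and Mrc1 2.47-fold across tumors, while Gpnmb and Trem2 are highest in tumor 2 and Chil3 is lowest there.

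Genes whose levels followed the members most closely across the 3 tumors were found by the distance between log2 shares of summed FPKM, over genes with a mean of at least 1 FPKM. For Gpnmb these were Nlgn2 (0.128), Lmtk3 (0.208) and Col1a1 (0.281), and 6 of 11189 genes lay within a distance of 0.5. Mrc1 was nearest to Cyp2s1 (0.0284), Gm44238 (0.138) and Il18 (0.238), with 12 genes within that distance. For Apoe they were Traj7 (0.160), G430095P16Rik (0.171) and Clu (0.196), with 16 genes within it. For Retnla no nearest genes are given, since its pattern rests on few reads. Mrc1 and Gpnmb also have few reads in tumor 3, so the order among their nearest genes is not resolved. Over 3 tumors such likeness is a description only. Of the 23 listed relatives of the members by gene family, tumor 1 had the highest level for 11, tumor 2 for 7 and tumor 3 for 2, and 3 had no read in any tumor.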

How the data were processed

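The authors deposited 1 table of FPKM values per gene for 3 Dnmt3b+/- PTCL. Per the paper's methods, reads were aligned to mm10 with STAR and quantified in SeqMonk; the labels and the methods name different Illumina instruments for these libraries. Genes without a read hold the value of 0.9 reads. Depth and reads per gene were therefore recovered with merged exon lengths of GENCODE M21, and 92.4% of genes with such a length gave whole reads (within 0.05) in all tumors; no reads are given for the others. Because of the 0.9 reads, 311 short genes without a read in any tumor exceed 0.2 FPKM and stay in the background. A repeated symbol was represented by its most abundant gene. Intervals were exact Poisson and conditional binomial 95% intervals, and folds used a floor of 3 reads. No gene above 0.2 FPKM in at least 1 tumor had the same value in any pair of tumors, so no column was a copy of another. That check cannot tell repeat libraries of 1 tumor from separate tumors. Each tumor was counted as 1 sample, as labelled. Steps were tested on simulated data. The named genes were the members, the 3 most abundant genes of each list, genes needed for counts of 5 or fewer, genes from the arginine, TREM2, cytokine and family lists, and the 3 nearest genes by pattern. Of 10 genes the rule names, 1 is not reported here and enters no count. The members and lists were chosen with earlier results of these data known. Alternatives were other scales, thresholds, divisors and each tumor left out. Python 3.11, pandas 2.3.3 and scipy 1.17.1 were used.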

Additional observations from a re-analysis of the deposited data

How the results depend on the processing

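With a threshold of 1 FPKM in place of 0.2, 1 member was above it in every tumor. With FPKM rescaled to a fixed sum, 6 members were above 0.2 in every tumor. No background share is given for either count. The background share with a fold of at least 4 was 15.0% over genes above 1 FPKM in at least 1 tumor and 10.3% over all genes. The count of members with a fold of at least 4 ranged from 4 to 6 with 1 tumor left out. The median fold over members divided by the macrophage identity level ranged from 2.38 to 3.03 with 1 tumor left out, where fewer tumors can only lower a fold. It was 11.6 with Csf1r, 12.2 with Adgre1, 27.9 with C1qa, C1qb and C1qc, and 8.93 without Cd68, the last chosen after seeing the data; the cause was not tested. The count of members highest in tumor 1 ranged from 6 to 8 with 1 of the other tumors left out, where a member highest in that tumor passes to another, and without tumor 1 it has no value. No background shares are given for the counts of members with 1 tumor left out. Of 54 alternative means of single members, 10 moved by over 1 SD, 9 of them through the rescaling of FPKM to a fixed sum and 1, Trem2, with the length of the principal transcript. With the value of genes without a read set to 0, also chosen after seeing the data, the members highest in tumor 1 remain 5 and the share of background genes highest in tumor 2 is 33.7%. No paired analysis was possible because the results come from no test. Depth limits Cd163, Retnla and Spp1, each with at most 32 reads in any tumor. It also limits the folds of Nos2, Trem2 and Chil3, whose lowest tumors rest on 1, 0 and 3 reads.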

Other observations

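Marco, a scavenger receptor of lymph node and marginal zone macrophages, was at 111, 2.44 and 1.60 FPKM in tumors 1, 2 and 3 (6572, 89 and 64 reads), near the level of Apoe in tumor 1. Cd5l, a secreted protein of tissue macrophages, was at 12.5, 1.61 and 0.260 FPKM. Of the 12 tissue and lymph node macrophage genes, 10 were highest in tumor 1, and Folr2 and Stab1 were highest in tumor 2.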
